A study of Mus musculus with 2 samples.

Results

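Matrix metalloproteinases, the secreted Adamts proteases and their inhibitors were followed through the cells of macrophage-rich and macrophage-poor mouse mammary tumors. Every gene whose symbol names a matrix metalloproteinase (Mmp), an Adamts protease, an Adamts-like protein (Adamtsl) or one of Timp1, Timp2 and Timp3 was kept, which gave 50 of the 33696 genes in the count tables. They comprised 23 Mmp, 19 Adamts, 5 Adamtsl and 3 Timp genes. PyMT-M, which the study calls High-MAC for its many macrophages, and PyMT-N, its Low-MAC counterpart rich in neutrophils, are transplantable sublines of the MMTV-PyMT mouse, whose mammary epithelium carries the polyoma middle T oncogene under a viral promoter. Both were grown in the mammary fat pad of female C57BL/6 mice that received them at 6 to 8 weeks of age, and the labels name no further agent or allele for either group. Tumors were depleted of CD45+ and Ter119+ cells, enriched with CD31 and CD144 beads and sorted for both proteins, and cells of 3 tumors were pooled into 1 library of the 10x 3′ assay per subline. The subline therefore cannot be told apart from the library, and the intervals given below, all at 95%, cover counting error only.

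Mmp proteins are zinc enzymes that cut collagens, laminins and other matrix proteins. Most are secreted as inactive precursors, whereas the membrane-type members stay on the cell surface and activate others, as Mmp14 does for Mmp2. Adamts proteases cut proteoglycans such as versican, or trim the ends of procollagen, and Adamtsl proteins share their matrix-binding parts but lack the protease part. The Timps bind Mmp proteins at their active site, and Timp3, which is held in the matrix, also blocks several Adamts proteases. In growing vessels, Mmp14 is known for opening matrix ahead of the sprout, and Adamts1 and Adamts9 are known from endothelial cells.

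Cells were put into 5 classes by UMIs, the counted single molecules. Blood endothelial cells had at least 5 UMIs of Pecam1, Flt1, Emcn and Kdr and at most 1 of Krt8, Krt18 and Rhox5, lymphatic cells had at least 3 of Prox1, Mmrn1 and Reln, and fibroblasts had Col3a1 at 3000 CPM or more, where CPM is a gene's UMIs scaled to 1000000 UMIs. Ptprc+ cells had at least 1 UMI of Ptprc (CD45). The tumor rule asked for at least 3 UMIs of Krt8, Krt18 and Rhox5 and none of Pecam1 and Flt1. Of 5777 PyMT-M and 5354 PyMT-N barcodes that passed the filters, 305 and 980 were blood endothelial, 7 and 196 lymphatic, 32 and 52 fibroblast, 42 and 125 Ptprc+, and 4812 and 3270 met the tumor rule, although all had passed the CD31+ CD144+ sort. Before the filters, 619 PyMT-M and 1267 PyMT-N barcodes met the blood endothelial rule, some of which met other rules too. The filters removed a larger share of them in PyMT-M, and the part of this loss in the ratios below is covered only by the alternatives. Blood endothelial cells held all 10 endothelial markers in both libraries. Pecam1, at 1234 and 1128 CPM, belongs to the class rule, so the selection sets part of its level. Among the markers outside the rule, Egfl7 had 1570 CPM (PyMT-M) and 1387 CPM (PyMT-N). Vwf differed more, with 157 and 640.3 CPM. The cells of the tumor rule held little of the epithelial markers outside the rule, with Epcam at 3.55 CPM in PyMT-M and 0.415 CPM in PyMT-N and Krt19 at 0 and 0.187 CPM. Krt18 itself was at 0.0587 CPM in PyMT-M against 1006 CPM in PyMT-N, and Pdgfrb, a receptor of mesenchymal cells, was at 36.5 and 244 CPM. They are therefore called tumor-rule cells. Blood endothelial cells had a median depth of 7052 UMIs (PyMT-M) or 12678.5 UMIs (PyMT-N), and tumor-rule cells of 23778 or 20778.5 UMIs. The libraries shared 20 barcode sequences, 9 of them among the kept cells.

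Mmp7 (matrilysin), Mmp20 and Mmp21 had no UMI in any barcode of either library. Another 10 members had between 2 and 49 UMIs over all classes, and 37 had 50 or more. Of the 50 members, 31 reached 20 CPM in at least 1 class with 50 or more cells, and their levels are described here. The other 19, among them Mmp8, Mmp10, Mmp12, Mmp25, Adamts8, Adamts14 and Adamts18, stayed below that level. The heat map of levels by cell class shows which classes held each gene.

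**Figure D1:**
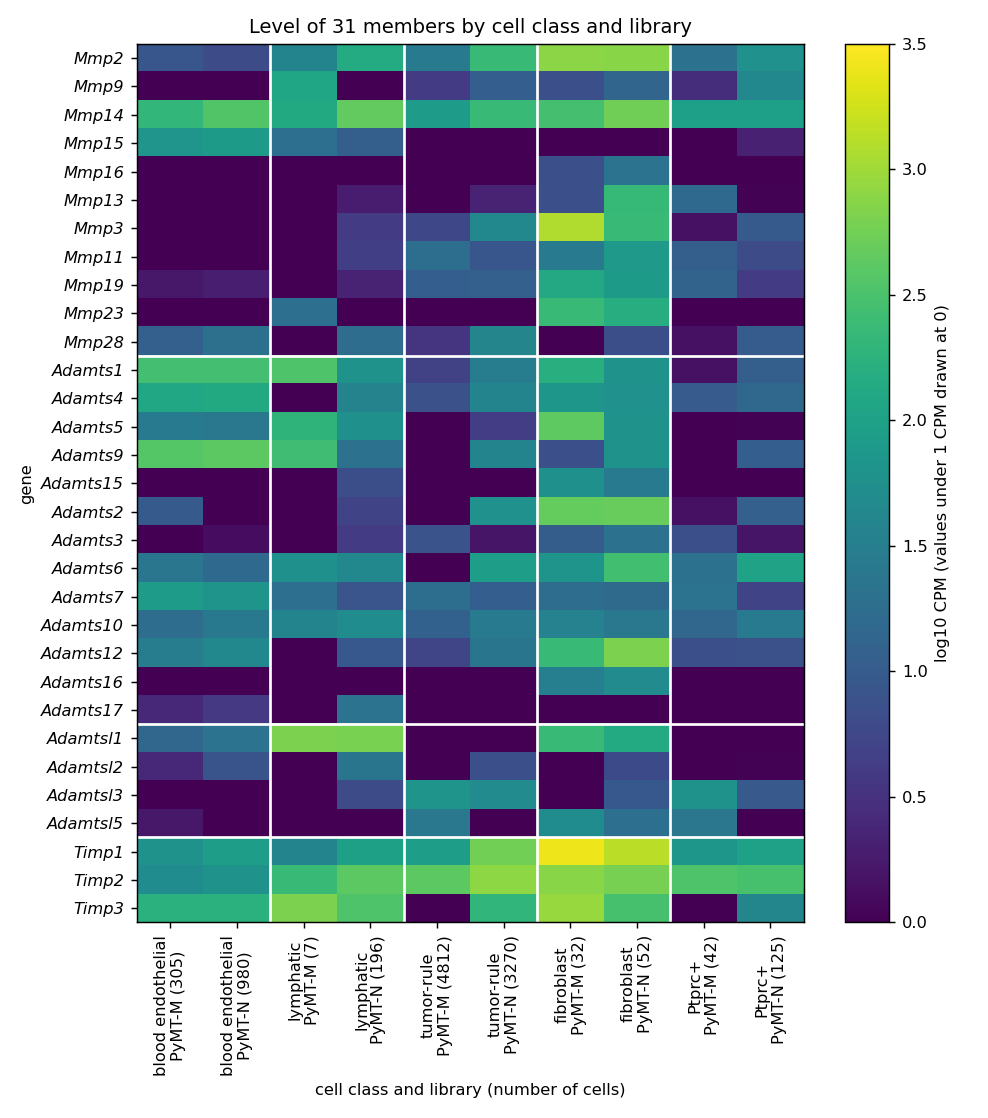
Levels of the 31 members that reached 20 CPM, as log10 CPM (color) for each gene (rows) in each of the 5 cell classes and 2 libraries (columns, with the number of cells). Adamts9, Adamts1 and Mmp15 were bright in blood endothelial cells, Adamtsl1 in lymphatic cells and Mmp2, Mmp3, Mmp23, Adamts2 and Timp1 in fibroblasts, and Timp3 was dark in tumor-rule cells of PyMT-M.

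The first comparison asked which members the vessel cells carry in preference to the tumor-rule cells around them. Of 33 members with at least 50 UMIs over both classes and libraries, 8 were at least 4-fold higher in blood endothelial than in tumor-rule cells of both libraries (24.2%), against 7.65% of 15575 genes. They were Adamts1, Adamts5, Adamts7, Adamts9, Adamts17, Adamts18, Adamtsl1 and Mmp15. Mmp15, a membrane-type metalloproteinase, had 67.9 CPM (57.7 to 79.3) in PyMT-M and 81.5 CPM (76.8 to 86.4) in PyMT-N blood endothelial cells. It was seen in 38.0% and 60.3% of those cells, against 0.0831% and 0.428% of the more deeply sequenced tumor-rule cells. Adamts9 was at 377 CPM (353 to 403) in PyMT-M and 416 CPM (405 to 427) in PyMT-N blood endothelial cells, and Adamts1, which cuts versican and aggrecan, at 285 CPM in both. In tumor-rule cells Adamts9 was at 0.0838 and 37.4 CPM and Adamts1 at 4.78 and 29.4 CPM. The endothelial excess of both genes was thus larger in PyMT-M, through the lower level in its tumor-rule cells.

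In the opposite direction, 8 of the 33 members were at least 4-fold higher in tumor-rule cells of both libraries (24.2%), against 2.83% of genes. These were the gelatinase Mmp9, the stromelysins Mmp3 and Mmp11, Mmp19, the procollagen protease Adamts14, Adamtsl3, Adamtsl4 and Timp2. Timp2, which in company with Mmp14 takes part in the activation of Mmp2, was at 411 CPM in tumor-rule against 50.8 CPM in blood endothelial cells of PyMT-M, and at 798 against 62.2 CPM in PyMT-N. Adamtsl3 had 2 (PyMT-M) and 3 (PyMT-N) UMIs in blood endothelial cells and was at 64.4 and 48.9 CPM in tumor-rule cells. Mmp14 differed less between these classes, being 2.37-fold higher in blood endothelial cells of PyMT-M and 1.51-fold higher in those of PyMT-N. Among members with UMIs in both classes of both libraries, Adamts2 and Adamts6 were more than 4-fold apart in opposite directions. Adamts6 was 24.8-fold higher in blood endothelial than in tumor-rule cells of PyMT-M and 5.68-fold lower in PyMT-N. For Adamts2 the PyMT-M endothelial level of 9.82 CPM came from 3 cells, 1 of which held 13 of the 23 UMIs.

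Between the sublines, few members of blood endothelial cells were past 2-fold. Of 20 members with at least 50 UMIs over both libraries, 1 was at least 2-fold higher in PyMT-M (5%, against 5.07% of 10926 genes) and 1 at least 2-fold lower (5%, against 5.21%). The median log2 ratio, with PyMT-M as the numerator, was -0.20 over the members and -0.01 over all genes compared. The members past 2-fold were both low. Adamts18 had 21 UMIs in 8 PyMT-M cells and 42 UMIs in 19 PyMT-N cells (8.96 against 3.08 CPM, log2 ratio 1.54, 0.71 to 2.33), and without cycling cells it had under 50 UMIs. Adamtsl2, which binds fibrillin-rich matrix, had 6 PyMT-M UMIs and 112 PyMT-N UMIs (2.56 against 8.22 CPM, log2 ratio -1.68, -3.16 to -0.52). Cycling cells, with at least 3 UMIs of Mki67, Top2a, Cenpf and Ccnb1, made up 23.3% of PyMT-M and 9.49% of PyMT-N blood endothelial cells. Without them 0 members were higher and 2 lower, and the share of all genes was not computed. Of other cell types' markers, the summed fibroblast markers were at 49.9 CPM in PyMT-M blood endothelial cells against 9.98 CPM in those of PyMT-N, the tumor markers at 13.7 against 9.10 CPM and the pericyte markers at 298 against 285 CPM, with Acta2 at 157 against 1.76 CPM and Kcnj8 at 9.39 against 125 CPM. Rgs5, also of the pericyte list, was at 68.3 against 3.16 CPM. The lymphatic markers summed to 70.4 CPM in PyMT-M and 149 CPM in PyMT-N blood endothelial cells, with Lyve1 at 18.4 against 1.84 CPM and Ccl21a at 0 against 36.7 CPM. The part of all these other markers in the ratios was not tested.

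Within the 2-fold limits, the membrane-type metalloproteinase Mmp14 was lower in PyMT-M, with 207 CPM (189 to 226) against 355 CPM (345 to 365) in PyMT-N (log2 ratio -0.78, -0.91 to -0.64). It was found in 65.6% of PyMT-M and 92.3% of PyMT-N blood endothelial cells. The shares were 55.5% and 75.5% once cells with at least 5000 UMIs were thinned to that depth and the shallower ones left out. Such cells numbered 283 of 305 in PyMT-M and 966 of 980 in PyMT-N. Mmp14 carried 69.0% and 75.5% of all Mmp UMIs in these cells, and the summed Mmp level followed it, with 300.1 CPM in PyMT-M and 469.5 CPM in PyMT-N (log2 ratio -0.65, -0.76 to -0.53). The secreted gelatinase Mmp2, which Mmp14 activates, was at only 8.54 and 6.39 CPM in blood endothelial cells. Mmp9 had a single UMI in each library. Mmp28 was at 12.0 CPM in PyMT-M and 19.7 CPM in PyMT-N (log2 ratio -0.72, -1.34 to -0.16).

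The Adamts proteases of blood endothelial cells stood at nearly the same level in both libraries. Their sum was 1003 CPM in PyMT-M and 1023 CPM in PyMT-N (log2 ratio -0.03, -0.09 to 0.04), and Adamts9 gave 37.6% and 40.7% of it. Adamts4, an aggrecanase, was at 127 and 133 CPM, and Adamts5, the other main aggrecanase, at 26.9 and 25.3 CPM. Adamts7, known for cutting cartilage oligomeric matrix protein, was at 85.4 CPM (73.9 to 98.0) in PyMT-M and 64.6 CPM (60.4 to 69.0) in PyMT-N. Adamts12, of the same subgroup, was at 30.7 and 42.4 CPM, and Adamts10 at 17.9 and 25.7 CPM. Adamts6 was at 23.5 and 15.6 CPM. Among the Adamts proteases with at least 50 UMIs, it had the largest excess in PyMT-M after Adamts18 (log2 ratio 0.59, 0.13 to 1.02). That order did not hold with class rules allowed to overlap, where the log2 ratio was -0.03 for Adamts6 and 0.64 for Adamts7. None of these but Adamts18 reached 2-fold. Adamts2, with 23 PyMT-M and 12 PyMT-N UMIs, had too few to be compared.

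Timp3 was the main Timp of blood endothelial cells, with 170 CPM (154 to 187) in PyMT-M and 171 CPM (164 to 178) in PyMT-N, and made up 60.0% and 52.9% of their Timp UMIs. Timp1 was at 62.3 and 90.1 CPM and Timp2 at 50.8 and 62.2 CPM. The 3 Timps together gave 0.217 UMIs for each UMI of an Mmp or Adamts gene in both libraries, compared with 2.01 and 1.70 in tumor-rule cells. Timp4, which is not among the members, had 0 UMIs in the blood endothelial cells of one library (PyMT-M) and 3 in those of the other.

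**Figure D2:**
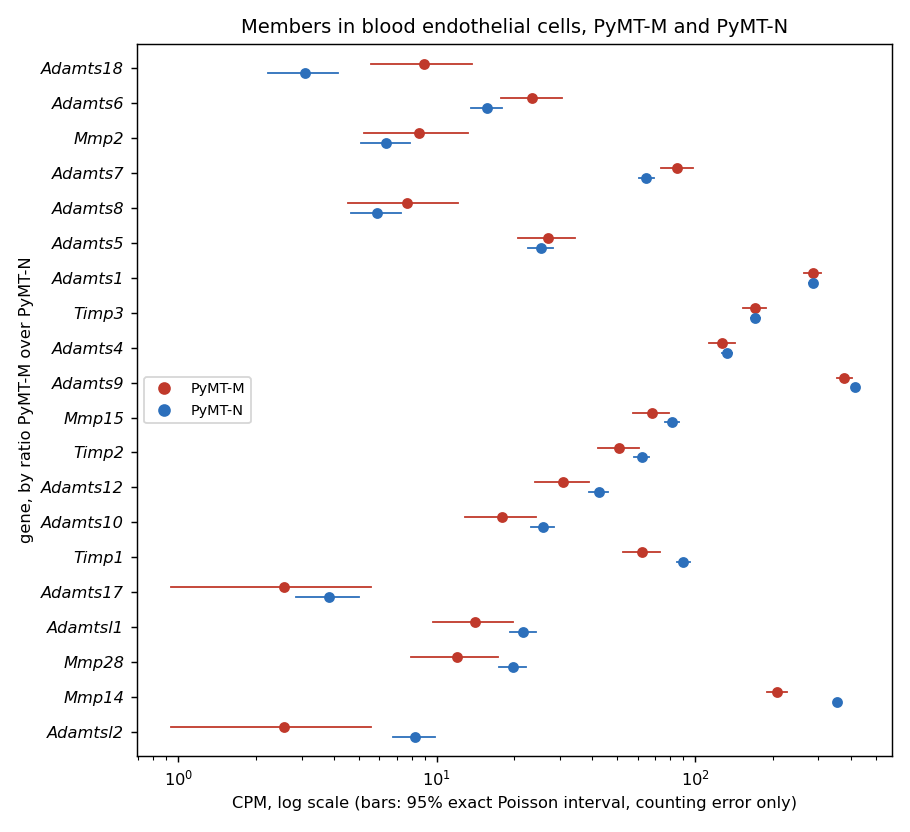
CPM on a log scale (points, with 95% exact Poisson intervals as bars) of the 20 members compared in blood endothelial cells of PyMT-M (red) and PyMT-N (blue), ordered by their ratio. The intervals of most genes overlapped or lay close together, Mmp14 was lower in PyMT-M and Adamtsl2 and Adamts18 at the ends of the order rested on few UMIs.

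Among 38 other genes of the pathway (inhibitors, plasminogen activators, Adam proteases, cathepsins and substrates), 23 could be compared in blood endothelial cells. Thbs1, a thrombospondin, had 199 CPM in PyMT-M against 54.7 CPM in PyMT-N (3.64-fold), and the hyaluronan receptor Cd44 had 14.5 and 3.60 CPM (4.03-fold). Lower in PyMT-M were Vwf, the substrate of Adamts13, at 157 against 640.3 CPM (4.07-fold), the plasminogen activator Plat at 55.5 against 172 CPM, the proprotein convertase Pcsk6 at 21.8 against 68.2 CPM and the inhibitor Tfpi2 at 12.8 against 36.9 CPM. Adamts13 itself had 4 UMIs in all classes together.

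Blood endothelial cells were also ordered by their summed level of 8 tip cell markers (Apln, Esm1, Angpt2, Cxcr4, Kcne3, Dll4, Nid2 and Pgf), which mark the cells at the front of a sprout. The highest 25% of cells were set against the lowest 25% within each library, as ends of a range and not as cell types, and 25 PyMT-M and 81 PyMT-N cells lay within 10% of the upper edge. In PyMT-M, 9 members could be compared, of which 3 were at least 2-fold higher in the highest cells, against 6.18% of 4126 genes, and 2 were lower, against 5.79%. In PyMT-N, of 16 members 1 was higher, against 3.28% of 9218 genes, and 5 were lower, against 6.41%. Adamts7 was past 2-fold in both libraries, with 141 against 23.1 CPM in PyMT-M (log2 ratio 2.61, 1.76 to 3.58) and 95.9 against 39.1 CPM in PyMT-N (1.30, 0.99 to 1.61). Mmp14 was at 103 CPM in the lowest and 293 CPM in the highest cells of PyMT-M (log2 ratio 1.51, 1.07 to 1.96) and at 238 and 414 CPM in those of PyMT-N (0.80, 0.67 to 0.93). Adamts4 had log2 ratios of 1.10 in PyMT-M and 0.94 in PyMT-N. These 3 genes thus had higher levels toward the tip end in both libraries.

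Timp2 ran the other way in both libraries, at 30.3 CPM in the highest against 88.8 CPM in the lowest cells of PyMT-M (log2 ratio -1.55, -2.42 to -0.75) and 43.6 against 92.2 CPM in PyMT-N (-1.08, -1.37 to -0.79). Adamts9 and Adamts1 had different ratios in the libraries, and that difference was not tested. Adamts9 was at 204 CPM in the highest and 577 CPM in the lowest cells of PyMT-M (log2 ratio -1.50, -1.82 to -1.20) and at 378 and 408 CPM in PyMT-N (-0.11, -0.22 to 0.00). Adamts1 had a log2 ratio of -0.23 (-0.56 to 0.09) in PyMT-M and 0.97 (0.82 to 1.12) in PyMT-N. In PyMT-N, Adamts6, Adamts10, Adamtsl1 and Adamtsl2 were also at least 2-fold lower in the highest cells, with too few UMIs in PyMT-M to compare. Cycling cells numbered 26 of 76 in the lowest and 7 of 76 in the highest cells of PyMT-M, and 47 of 245 and 6 of 245 in PyMT-N. Lowest and highest cells had median depths of 6975.5 and 7369.5 UMIs in PyMT-M, and of 11888 and 13307 UMIs in PyMT-N, and the part of both in these ratios was not tested.

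**Figure D3:**
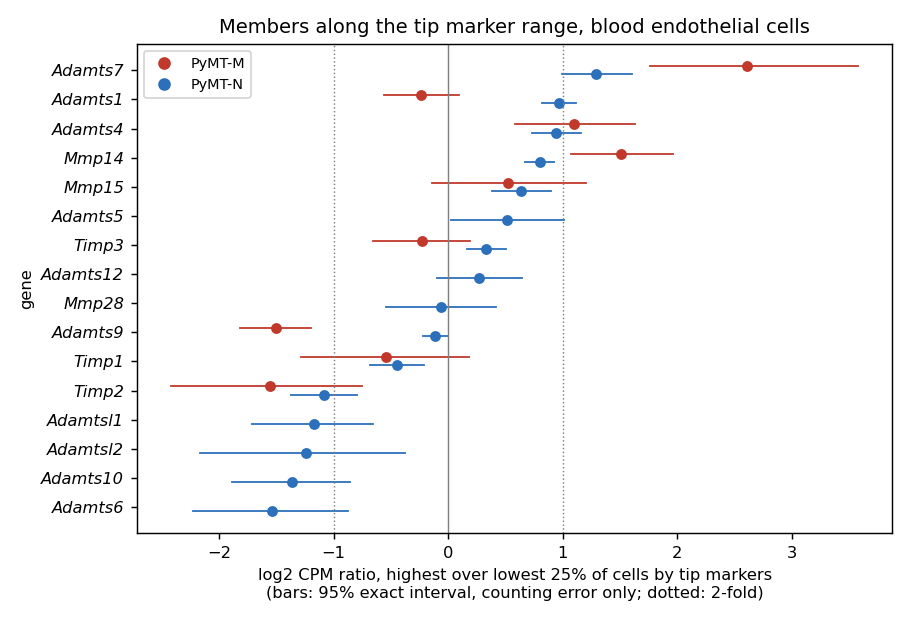
Log2 CPM ratio of the highest over the lowest 25% of blood endothelial cells by tip marker level (points, with 95% exact intervals as bars) for each member with at least 50 UMIs in a library, PyMT-M in red and PyMT-N in blue, with dotted lines at 2-fold. Adamts7, Mmp14 and Adamts4 lay to the right and Timp2 to the left in both libraries, and the points of the libraries lay apart for Adamts9 and Adamts1.

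The members of lymphatic endothelial cells are given beside those of blood endothelial cells. In PyMT-N, Adamtsl1 (also known as punctin) was at 619 CPM (590 to 649) in 85.2% of lymphatic cells, against 21.6 CPM (19.2 to 24.2) in 6.84% of blood endothelial cells, at median depths of 11810.5 and 12678.5 UMIs, and against 0.367% of tumor-rule cells. The 7 lymphatic cells of PyMT-M held 34 UMIs of Adamtsl1, or 650 CPM (450 to 908), against 14.1 CPM in its blood endothelial cells. Also in PyMT-N, Timp2 was at 417 CPM in lymphatic and 62.2 CPM in blood endothelial cells, and Mmp2 at 144 and 6.39 CPM. Timp3 was at 345 and 171 CPM and Mmp14 at 460 and 355 CPM. The summed tumor markers stood at 127 CPM in these lymphatic and 9.10 CPM in these blood endothelial cells. Their list includes Krt8, Krt18 and Rhox5, which the blood endothelial rule limits to 1 UMI in all and the lymphatic rule does not. The class rules thus set part of this gap. The fibroblast marker Dcn was at 106 and 0.367 CPM, and the part of these markers in the differences was not tested. Adamts9 and Adamts1 were lower in lymphatic cells, at 20.2 and 62.6 CPM against 416 and 285 CPM. Of the lymphatic cells, 3 in PyMT-M and 172 in PyMT-N also met the blood endothelial rule and were counted as lymphatic only. With overlapping rules they were counted in both classes. That setting also returned 6 PyMT-M and 57 PyMT-N barcodes to the blood endothelial cells, which had been in no class for meeting several rules. Under it, 6 members in place of 1 were at least 2-fold lower in PyMT-M blood endothelial cells, and the part of each group of added cells was not tested. The share of all genes under that setting was not computed, so this count has no background beside it.

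In tumor-rule cells the members differed far more between the sublines. Of 29 members compared, 17 were at least 2-fold lower in PyMT-M (58.6%, against 25.5% of 14922 genes) and 4 at least 2-fold higher (13.8%, against 21.1%). The median log2 ratio was -1.43 over the members and -0.08 over all genes. Timp3 showed the widest gap, with 8 UMIs in 8 of 4812 PyMT-M cells (0.0670 CPM, 0.0289 to 0.132) and 15256 UMIs in 2166 of 3270 PyMT-N cells (204 CPM, 201 to 207), a log2 ratio of -11.57 (-12.78 to -10.59). In PyMT-M blood endothelial cells, from the same library, Timp3 stood at 170 CPM. With overlapping class rules the log2 ratio was -8.68, with class thresholds doubled -8.60 and without cells that held fibroblast or leukocyte markers -9.93. Such cells had at least 3 summed UMIs of Ptprc, Tyrobp, Lyz2, Col1a1, Col1a2 and Col3a1. Col3a1 alone had 35983 UMIs in the 4812 PyMT-M cells, and the number of cells left under this setting was not recorded. Timp1 was at 92.0 CPM in PyMT-M and 565 CPM in PyMT-N tumor-rule cells (6.14-fold), and Timp2 at 411 and 798 CPM (1.94-fold, and past 2-fold, with a log2 ratio of -1.34, without cells that held fibroblast or leukocyte markers). Timp2 thus made up 81.7% of the Timp UMIs of tumor-rule cells in PyMT-M and 50.9% in PyMT-N.

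**Figure D4:**
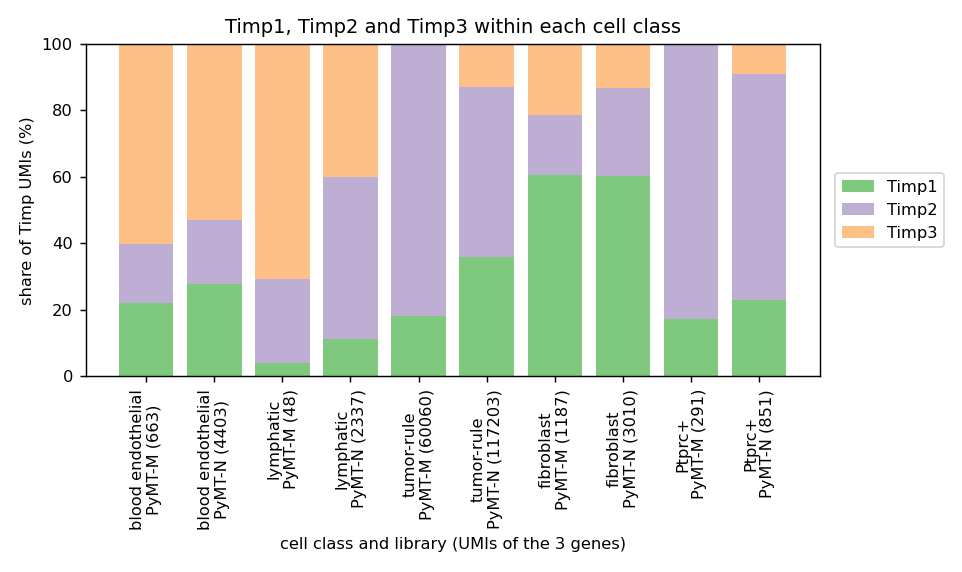
Share of Timp1 (green), Timp2 (purple) and Timp3 (orange) in the UMIs of the 3 genes, in percent, for each cell class and library, with the number of UMIs under each bar. Timp3 was the largest share in blood endothelial cells of both libraries, Timp1 in fibroblasts and Timp2 in tumor-rule and Ptprc+ cells, where PyMT-M had 8 and 0 UMIs of Timp3.

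Among the Adamts proteases of tumor-rule cells, the procollagen protease Adamts2 was at 0.654 CPM in PyMT-M and 58.6 CPM in PyMT-N (89.7-fold lower), Adamts6 at 0.947 and 88.8 CPM (93.8-fold lower) and Adamts9 at 0.0838 and 37.4 CPM. Adamts5 had 0 UMIs in PyMT-M, which allows up to 0.0251 CPM (3 UMIs), and 319 UMIs in PyMT-N, and was at least 169.7-fold lower (log2 bound -7.41, and -3.91 without cells that held fibroblast or leukocyte markers). Adamts1, Adamts4, Adamts10 and Adamts12 were lower by 2.29-fold to 6.16-fold. Adamts3, a procollagen protease related to Adamts2, ran the other way, with 7.87 CPM in PyMT-M and 1.58 CPM in PyMT-N. Adamts20 had 144 UMIs in PyMT-M against 1 UMI in PyMT-N (log2 ratio 6.50, 3.99 to 11.81). Adamts7, Adamts8 and Adamts14 were within 2-fold, although the log2 ratio of 0.77 for Adamts14 became 1.15 as a mean over cells and 1.51 without cells that held Pdgfrb or Dcn. Without those cells Adamts2 had a log2 ratio of -5.31 in place of -6.49, Adamts12 of -1.23 in place of -2.08 and Adamts3 of 3.01 in place of 2.32. Cells without a Pdgfrb UMI numbered 2262 in PyMT-M but only 139 of 3270 in PyMT-N, where they held 2 Adamts3 UMIs. The values without Pdgfrb or Dcn thus rest on few PyMT-N cells. The Adamts10 ratio came just inside 2-fold when mitochondrial, ribosomal protein and hemoglobin genes were left out of the scaling.

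Of the metalloproteinases, Mmp2 was at 27.5 CPM in PyMT-M and 231 CPM in PyMT-N tumor-rule cells (8.37-fold lower), and was seen in 42.7% and 88.4% of them. Its activator Mmp14 was at 87.3 and 234 CPM (2.68-fold lower), Mmp9 at 4.12 and 11.1 CPM and Mmp28, known as epilysin, at 3.36 and 39.4 CPM. The stromelysin Mmp3 was at 5.80 and 43.6 CPM, and its log2 ratio of -2.91 was -1.77 without cycling cells and -1.67 without cells that held fibroblast or leukocyte markers. The collagenase Mmp13 had 7 and 168 UMIs. Mmp11, the stromelysin that differs from the others in being activated inside the cell, was higher in PyMT-M, with 18.3 CPM against 8.58 CPM (2.14-fold), and Mmp19 was at 11.2 and 11.7 CPM. Mmp11 was within 2-fold when cells with fibroblast or leukocyte markers were left out (log2 ratio 0.73) or cycling cells were (0.95). Mmp9 was within 2-fold without cycling cells (-0.97) and without cells that held Pdgfrb or Dcn (-0.56), where the log2 ratio of Mmp2 was -2.44 in place of -3.07. The setting without Pdgfrb or Dcn left at most 139 PyMT-N cells. Summed, the Mmp genes reached 159 CPM in PyMT-M and 583 CPM in PyMT-N. The Adamtsl proteins were led by Adamtsl3 in both libraries, with 64.4 and 48.9 CPM. Adamtsl2 had 2 UMIs in PyMT-M and 538 in 355 cells of PyMT-N (log2 ratio -8.75, -11.79 to -6.89). Its value was -5.30 without cells that held fibroblast or leukocyte markers. That value rests on at most 2 PyMT-M UMIs or, if none was left, on the 3 UMIs set for a gene at 0. Without cycling cells Adamtsl2 had 0 UMIs in PyMT-M, so the value of -5.91 is only a bound, set by 3 UMIs. Adamtsl5, another fibrillin-binding protein, was at 25.4 CPM (24.5 to 26.4) in 42.5% of PyMT-M tumor-rule cells and at 0.241 CPM (0.143 to 0.380) in 0.489% of those of PyMT-N (106-fold higher, log2 ratio 6.72). Without cells that held Pdgfrb or Dcn, its value of 4.13 is only a lower bound, set by 3 UMIs in PyMT-N.

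**Figure D5:**
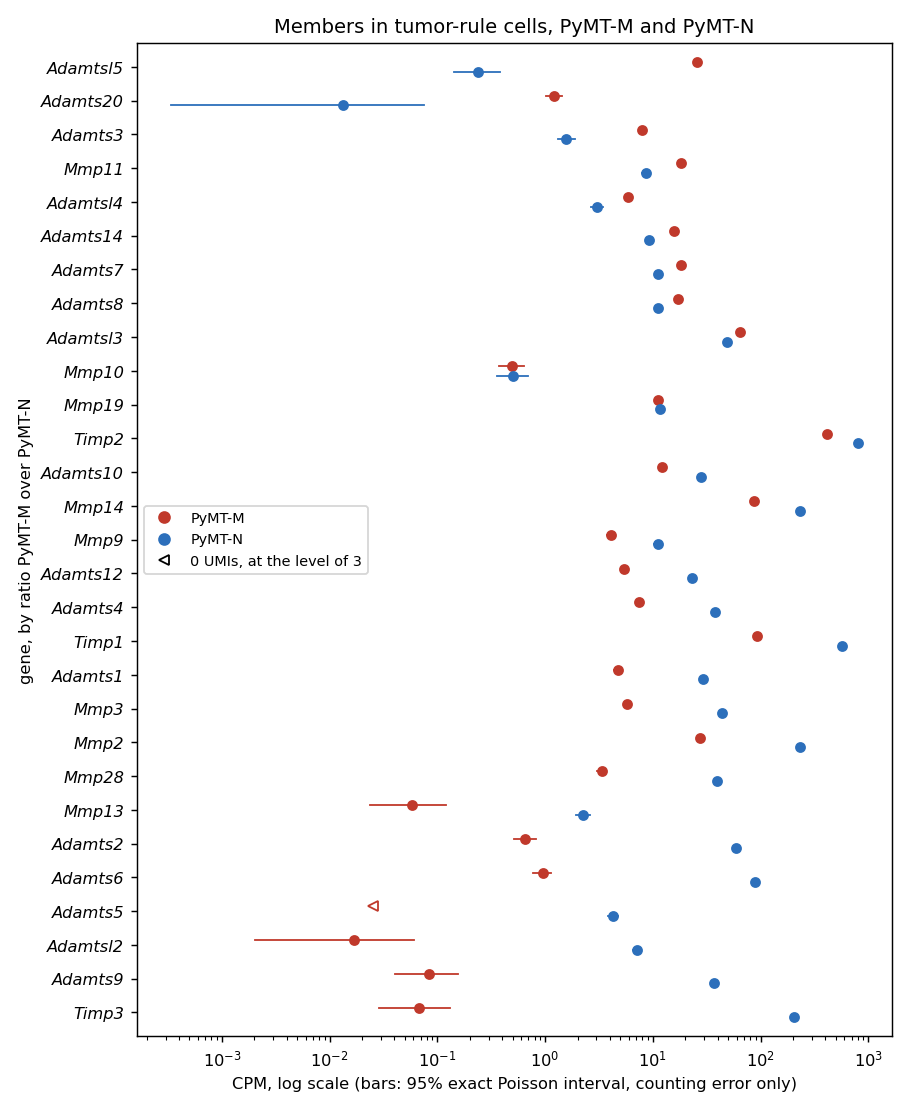
CPM on a log scale (points, with 95% exact Poisson intervals as bars) of the 29 members compared in tumor-rule cells of PyMT-M (red) and PyMT-N (blue), ordered by their ratio, with an open triangle where a gene had 0 UMIs, drawn at the level of 3. Timp3, Adamts9, Adamtsl2, Adamts5 and Mmp13 lay below 0.1 CPM in PyMT-M, and Adamtsl5 and Adamts20 were the genes most in excess there.

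The levels were also read within parts of the tumor-rule cells, whose summed fibroblast markers were at 399 CPM in PyMT-M against 427 CPM in PyMT-N and summed pericyte markers at 262 against 315 CPM. Single markers of these lists were further apart. Dcn was at 0.142 CPM in PyMT-M against 75.2 CPM in PyMT-N, Pdpn at 0.629 against 85.9 CPM and Pdgfrb at 36.5 against 244 CPM. In the other direction Col3a1 was at 302 against 118 CPM, Dpt at 44.5 against 0.120 CPM and Acta2 at 223 against 50.9 CPM, and the part of these markers in the ratios was not tested beyond the cells left out above. Cycling cells made up 74.7% of tumor-rule cells in PyMT-M and 4.77% in PyMT-N. In cells that were not cycling, Timp3 was at 0 CPM in PyMT-M and 207 CPM in PyMT-N, Mmp2 at 24.6 and 237 CPM, and Adamtsl5 at 26.8 and 0.247 CPM. Mmp3 was at 9.93 and 33.8 CPM in the same cells, with 4.73 CPM in cycling cells of PyMT-M and 158 CPM in those of PyMT-N. Without cycling cells Mmp13 had a log2 ratio of -3.69 in place of -5.26, and Mmp10, with 0.494 and 0.508 CPM over all tumor-rule cells, was at 1.10 and 0.436 CPM (1.34). Cells with a UMI of Pdgfrb made up 53.0% of PyMT-M and 95.7% of PyMT-N tumor-rule cells. Timp3 in PyMT-N was at 204 CPM in cells with and 215 CPM in cells without a Pdgfrb UMI, and Adamts9 at 37.6 and 31.2 CPM. Mmp2 was at 234 and 141 CPM and Adamts2 at 59.7 and 29.0 CPM in the same cells, whereas Mmp3 was at 39.5 CPM in those with and 155 CPM in those without. Of 30 other pathway genes compared in tumor-rule cells, 16 were at least 2-fold lower in PyMT-M and 3 higher, beside 25.5% and 21.1% of all genes.

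The promoters of the members fell into different kinds by sequence, and 6 are shown, 5 of them of genes that were at least 2-fold lower in PyMT-M tumor-rule cells. RefSeq (build GRCm38.p6) gave a window for 35 of the 50 members, of which the 250 bases before the start were searched. The motif TGANTCA, bound by AP-1 factors and equal on both strands, was present in 8 of the 10 genes Mmp13, Mmp12, Mmp1b, Mmp3, Mmp1a, Mmp10, Mmp8, Mmp27, Mmp20 and Mmp7, which lie next to each other on chromosome 9, and in 0 of the other 25 members with a window. Over all of RefSeq it was in 2113 of 27025 genes with a window, or 6.75% of 32851 windows, as a gene can have several. TATAAA on either strand was in 7 of the 10 chromosome 9 genes and in 3872 of all 27025 genes (12.4% of all windows). The 120 bases before the start of Mmp3 (chr9:7445702-7445821, plus strand), Mmp13 (chr9:7272394-7272513, plus strand) and Mmp10 (chr9:7502222-7502341, plus strand) are given as the examples of this group, with TGANTCA and TATAAA in capitals.
Mmp3: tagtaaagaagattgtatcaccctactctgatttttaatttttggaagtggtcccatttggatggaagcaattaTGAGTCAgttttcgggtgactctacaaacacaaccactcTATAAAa
Mmp13: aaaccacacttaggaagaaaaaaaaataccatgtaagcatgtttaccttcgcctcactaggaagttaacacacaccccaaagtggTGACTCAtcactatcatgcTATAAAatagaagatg
Mmp10: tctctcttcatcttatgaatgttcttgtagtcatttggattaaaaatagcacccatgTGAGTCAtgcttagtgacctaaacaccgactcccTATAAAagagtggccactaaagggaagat

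The windows of Timp3 (chr10:86300292-86300411, plus strand), Adamts9 (chr6:92943535-92943654, minus strand) and Adamts2 (chr11:50601965-50602084, plus strand) held neither motif and are given with each CG pair in capitals. These genes had log2 ratios of -11.57, -8.80 and -6.49 between the sublines in tumor-rule cells. Adamtsl2, with a log2 ratio between those of Adamts9 and Adamts2, was left out of the examples. Its window held TATAAA and 8 CG pairs.
Timp3: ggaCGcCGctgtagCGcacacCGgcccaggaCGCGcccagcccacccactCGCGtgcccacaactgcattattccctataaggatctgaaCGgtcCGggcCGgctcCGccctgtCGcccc
Adamts9: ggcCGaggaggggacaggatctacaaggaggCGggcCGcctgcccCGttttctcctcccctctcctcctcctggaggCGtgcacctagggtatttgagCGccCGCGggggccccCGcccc
Adamts2: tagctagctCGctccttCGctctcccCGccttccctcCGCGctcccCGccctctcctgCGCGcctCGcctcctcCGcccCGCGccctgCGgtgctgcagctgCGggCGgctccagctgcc

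These 120-base stretches held 13, 9 and 15 CG pairs, against 1 in each of the 3 stretches from chromosome 9. Over the whole 250 bases the median was 1 CG pair for member windows on chromosome 9, 16 for those elsewhere and 6 for all promoters. Timp3, Adamts9 and Adamts2 held 18, 22 and 34 there, whereas Adamtsl2 held 8. The 4 members at least 2-fold higher in PyMT-M tumor-rule cells, Adamts3, Adamts20, Adamtsl5 and Mmp11, held 35, 32, 22 and 14. A relation of CG pairs to the ratios was not tested. Of the 10 neighbours on chromosome 9, only Mmp3, Mmp13 and Mmp10 had 50 or more UMIs over all classes, and Mmp3 held 4637 of their 5371 UMIs.

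Fibroblasts, with 32 cells in PyMT-M and 52 in PyMT-N, held the highest levels of several members. Their median depths were far apart, at 7784 UMIs in PyMT-M and 24094.5 UMIs in PyMT-N. Timp1 was at 2585 and 1391 CPM, Mmp2 at 767 and 757 CPM, Adamts2 at 466 and 481 CPM and Mmp23 at 233 and 153 CPM. Mmp23 had 0 UMIs in blood endothelial cells of both libraries and was seen in 0.333% and 0.520% of tumor-rule cells, against 84.4% and 82.7% of fibroblasts. Adamts16 reached 32.3 and 48.2 CPM and Adamts15 57.4 and 27.5 CPM in fibroblasts and were low or at 0 in blood endothelial and tumor-rule cells. Mmp16 had 2 and 28 UMIs in fibroblasts, out of 278881 and 1307332 UMIs of all genes.

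Between the sublines, 5 of 20 members compared in fibroblasts were at least 2-fold higher in PyMT-M (25%, against 5.45% of 5044 genes) and 5 at least 2-fold lower (25%, against 12.2%). Higher were Mmp3, at 1216 against 233 CPM (log2 ratio 2.38, 2.15 to 2.61), Adamts5, at 427 against 62.0 CPM (2.78, 2.36 to 3.21), Timp3, at 914 against 304 CPM (1.59, 1.36 to 1.82), Adamts1 and Adamts15. Lower were Adamts12, at 226 against 638 CPM, Adamts6, at 64.5 against 275 CPM, Adamts9, Mmp11 and Mmp13. The Mmp13 value rested on 1 PyMT-N cell with 269 of its 286 UMIs. Mmp2 and Adamts2 had log2 ratios of 0.02 and -0.05, beside a median of -0.14 over all genes and 0.30 over the members. Relative to that median over all genes, 6 members were at least 2-fold higher and 5 lower, and the share of all genes relative to it was not computed. Adamts1 and Adamts15 were within 2-fold with overlapping class rules (0.80 and 0.64), as was Adamts1 with a mitochondrial limit of 5% (0.99) and Adamts15 without the highest doublet scores (0.97). Tumor markers summed to 35.9 CPM in PyMT-M fibroblasts and 112 CPM in those of PyMT-N, and pericyte markers to 796 and 1749 CPM, with Acta2 at 473 and 1258 CPM. Of the fibroblasts' own markers, Dcn was at 4511 and 1261 CPM and Dpt at 807 and 140.0 CPM. The part of these markers and of the difference in depth in the ratios was not tested.

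Ptprc+ cells had few UMIs of the members that are known from leukocytes. Mmp12, the macrophage elastase, had 14 UMIs in 3 of 23 PyMT-M cells with at least 5 UMIs of 6 macrophage and monocyte markers (Lyz2, Cd68, Csf1r, Adgre1, C1qa and Tyrobp) and 22 UMIs in 3 of 40 such cells of PyMT-N. Mmp9, the gelatinase of neutrophils and macrophages, had 72 UMIs in 3 of the 40 PyMT-N cells, and 1 Ptprc+ cell of that library held 70 of its 83 UMIs. No cell met the neutrophil rule in either library, in a suspension that had been depleted of CD45+ cells. The rule asked for at least 5 UMIs of S100a8, S100a9, Csf3r and Cxcr2. Like the macrophage and lymphocyte rules used here, it also asked for more UMIs than of the other lists, and the macrophage list holds Lyz2 and Tyrobp. S100a8 and S100a9 had 33 and 19 UMIs in Ptprc+ cells of PyMT-M and 5 and 2 in those of PyMT-N. Mmp8, the neutrophil collagenase, had 6 UMIs in Ptprc+ cells of PyMT-M and no UMI in those of PyMT-N. These 6 fell in 3 cells that met the macrophage and monocyte rule. Over all barcodes before the filters Mmp8 had 41 UMIs, against 9 over all classes. Of 9 members compared in Ptprc+ cells, 1 was at least 2-fold higher in PyMT-M and 4 lower, beside 782 and 1042 of 7085 genes. Some members differed in the same direction as in tumor-rule cells. Timp3 was at 0 CPM in PyMT-M and 40.2 CPM in PyMT-N, and Adamtsl3 at 61.4 and 9.39 CPM. Adamts6 had 14 and 197 UMIs out of 700313 and 1916901 of all genes. Adamtsl5, at 24.3 CPM and 0 UMIs, had under 50 UMIs. Timp2, the member with the most UMIs there, was not lower in PyMT-M, with 241 against 579 UMIs of these totals, unlike in tumor-rule cells. The Ptprc+ cells of PyMT-M held 23 macrophage and monocyte and 14 lymphocyte cells (at least 3 UMIs of Cd3e, Cd3g, Trbc1, Trbc2, Nkg7, Cd79a and Ms4a1), against 40 and 83 in PyMT-N, and lymphocytes held 156 of the 197 Adamts6 UMIs of PyMT-N (134 CPM). Of the Ptprc+ cells, 17 of 42 in PyMT-M and 19 of 125 in PyMT-N were among the highest doublet scores of their library. The summed tumor markers stood at 678 and 379 CPM in these Ptprc+ cells, against 941 and 1830 CPM in tumor-rule cells and 13.7 and 9.10 CPM in blood endothelial cells. That sum includes Krt8, Krt18 and Rhox5, which the tumor rule asks for and the blood endothelial rule limits. The part of the makeup, the doublet scores and these markers was not tested.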

How the data were processed

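The data are 10x Genomics 3′ single-cell libraries (v3.1 chemistry), 1 per subline, each from 3 pooled tumors. The processing notes name Cell Ranger 8.0.0 and mouse genome mm39. The authors deposited a matrix of UMI counts per gene and barcode, with no normalization, for 7821 PyMT-M barcodes (141067264 UMIs) and 6974 PyMT-N barcodes (116150425 UMIs). The labels name collagenase I for the dissociation, whereas the methods of the study name collagenase II and dispase II.

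Barcodes were kept with at least 200 genes, a gene number within 2-fold of the library median and at most 10% mitochondrial UMIs. A barcode meeting the lymphatic and blood endothelial rules was lymphatic, and other barcodes meeting 2 rules were in no class (58 in PyMT-M, 87 in PyMT-N), as were those meeting none (521 and 644). UMIs were summed per class and library and scaled to CPM. The 3′ assay counts molecules at their end, so values were not divided by gene length. Ratios were formed where both libraries together held 50 UMIs or more, and a gene at 0 was set at 3 UMIs. Intervals were exact Poisson, exact for a ratio of counts and Clopper-Pearson for shares. With 1 library per subline no test was run. Doublets were scored with Scrublet (scanpy 1.11.5), which called 1 barcode in PyMT-M, too few to be of use, and 149 in PyMT-N, so they were kept and the highest scores left out as an alternative. The interval code was tested on simulated counts. RefSeq gene order (GRCm38.p6) gave neighbours by name for all 50 members. The members and lists were chosen with earlier results of these data known. Levels are given for members with at least 20 CPM in a class of at least 50 cells, ratios for members with at least 50 UMIs, and other pathway genes where past 2-fold in blood endothelial cells, of which 1 is not reported here. The values of Mmp8, Mmp12, Mmp25 and Adamts13, the remarks on single cells and the division by Pdgfrb were added after values were seen.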

Additional observations from a re-analysis of the deposited data

Results flagged for a closer look

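The members Timp3, Adamts5, Mmp3, Adamts1 and Mmp11 were at least 2-fold apart in opposite directions in tumor-rule cells and fibroblasts, and the difference between the classes was not tested, since each subline had 1 library. Timp3 had a log2 ratio (PyMT-M divided by PyMT-N) of -11.57 in tumor-rule cells and 1.59 in fibroblasts, a difference of -13.16. Adamts5 had -7.41, a bound, and 2.78, which differ by -10.19. Mmp3 had -2.91 and 2.38, a difference of -5.29. Adamts1 had -2.62 and 1.42, a difference of -4.04. Its fibroblast ratio was within 2-fold with overlapping class rules (0.80) and with a mitochondrial limit of 5% (0.99). Mmp11 ran the other way, with 1.09 and -1.42, a difference of 2.51. Its tumor-rule ratio was within 2-fold without cells that held fibroblast or leukocyte markers (0.73) and without cycling cells (0.95). The fibroblast values rest on 32 and 52 cells, with median depths of 7784 and 24094.5 UMIs.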

How the results depend on the processing

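The count of members at least 2-fold lower in PyMT-M tumor-rule cells stayed between 14 and 18 under 14 alternatives, 3 of which were chosen after seeing the data (cycling cells left out, cells with a UMI of Pdgfrb or Dcn left out, barcodes of both libraries left out). The higher count there was 2 when cells with other markers were left out. In blood endothelial cells, where 1 member was higher and 1 lower, no alternative but one gave more than 2. With class rules allowed to overlap, 6 were lower and the log2 ratios of the sums were 0.19 for Adamts, -2.05 for Adamtsl and -0.40 for Timp. The lower count was 2 with a mean over cells, with at least 20 UMIs and without cycling cells. The higher count was 2 with at least 20 UMIs and 0 without cycling cells, and both were 0 with at least 200 UMIs, where 15 members were compared. Without a limit on gene number, the log2 ratio of the Timp sum was 0.022. Under that setting the log2 ratio in blood endothelial cells was 0.30 for Timp3 and 0.01 for Adamts9, both outside their reported intervals. In fibroblasts, 3 members were higher with overlapping rules, and 3 were higher and 3 lower with at least 200 UMIs. The counts of members 4-fold apart between blood endothelial and tumor-rule cells ran from 6 to 9 in each direction. Of 758 single ratios recomputed, 0 turned sign from past 2-fold and 644 stayed within their interval, and a further 10 had too few UMIs to compare or only a bound without direction. By class, 209 of 219 ratios stayed within it in blood endothelial cells, 186 of 199 in fibroblasts and 249 of 340 in tumor-rule cells, where 91 moved. Shares of all genes were computed only for the reported setting and not under the alternatives. The cause of these shifts was not tested, beyond the fewer genes or the added lymphatic and other barcodes that the alternatives bring by construction. No paired analysis was possible because each subline had 1 library. Depth limited the lymphatic cells of PyMT-M most, where 0 UMIs allow up to 57.3 CPM, against 0.0251 CPM in its tumor-rule cells.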

Other observations

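Mmp25, a membrane-type metalloproteinase known from leukocytes, had 44 UMIs in 40 PyMT-N blood endothelial cells, beside 13620805 UMIs of all genes in that class. In PyMT-M blood endothelial cells it had 1 UMI beside 2342930, and it had 58 UMIs in all classes. Adamts8 was at 7.68 and 5.87 CPM in the blood endothelial and 17.1 and 11.2 CPM in the tumor-rule cells of PyMT-M and PyMT-N. Adamts17, a protease linked to fibrillin matrix, was at 21.7 CPM in lymphatic and 3.82 CPM in blood endothelial cells of PyMT-N. All members together made up 1607 CPM in PyMT-M and 1847 CPM in PyMT-N blood endothelial cells, 850 and 2550.4 CPM in tumor-rule cells and 8846 and 6402 CPM in fibroblasts.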
